A study of Homo sapiens with 2 samples.

Results

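The genes described here encode the proteins of the mitochondrial ribosome, and their transcripts were measured in KYSE170-luc, a luciferase-labelled line of human esophageal squamous carcinoma. The study has 2 arrays, 1 of cells that received an empty vector and 1 of cells that received SOX17. SOX17 is a transcription factor of the SOX family. In both groups RNA was taken 12 h after transfection, and the labels give the same culture medium for both. There was 1 array and 1 line per group, so no replicate, no test and no p-value belongs to any value below. The share of cells that took up vector is not given in the sources used here, and in RNA from a whole culture more expressing cells and more RNA per cell cannot be told apart.

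Members were chosen by gene symbol: every gene whose symbol in the platform annotation is MRPL or MRPS followed by digits, with or without a final letter, and no pseudogene. That gave 75 of the 19775 genes with a probe set of their own, 48 of the large subunit (MRPL) and 27 of the small subunit (MRPS). They were read by 140 probe sets. MRPL53 and MRPS24 have only probe sets that the annotation pairs with several genes, and were not analysed here. Where a gene has several probe sets, the one of highest mean log2 intensity gives the gene value. All 75 lay above the floor of 95, the 60th percentile of all values, on both arrays, as did 10034 of the 19775 genes. The set was picked for description with earlier results of these arrays in view, so the values below describe these arrays and support nothing beyond them.

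The mitochondrial ribosome translates the few proteins that the mitochondrial genome encodes, which are core subunits of the respiratory chain and ATP synthase. All of its proteins are encoded in the nucleus, made in the cytosol and imported. Some descend from bacterial ribosomal proteins and others exist only in mitochondria. The small subunit binds the mRNA and decodes it. The large subunit joins amino acids and releases the chain through a tunnel at the inner membrane.

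Mitochondrial ribosome genes lay slightly higher on the SOX17 array, nearly all of them and by little. Of the 75 members 67 had a log2 ratio above 0 (SOX17 over empty vector), 89.3% against 54.6% of the 10034 genes measured on both arrays. Their median log2 ratio was 0.16, which is 1.12-fold, and that of all measured genes was 0.03. When all ratios were centred on the median gene, 62 members stayed above 0. Only 1 member, MRPS14, was at least 1.5-fold higher, a size that 3.78% of all measured genes reached. No member was at least 1.5-fold lower, against 3.19% of all measured genes, and none differed by 2-fold in either direction, against 0.747%. These shares depend on intensity and on the floor. With the measured genes in 5 equal classes of mean intensity, class 5 the brightest, 0.648% of all genes in class 4 and 0.249% in class 5 were at least 1.5-fold higher, and 1.89% and 0.747% at least 1.5-fold lower. MRPS14 lay in class 4. With the floor at percentile 75 of all values 1.43% of all measured genes were at least 1.5-fold higher and 1.79% lower, and with no floor 21.4% and 14.6%. At like intensity differences of that size were thus rare among all genes, as among the members.

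**Figure D1:**
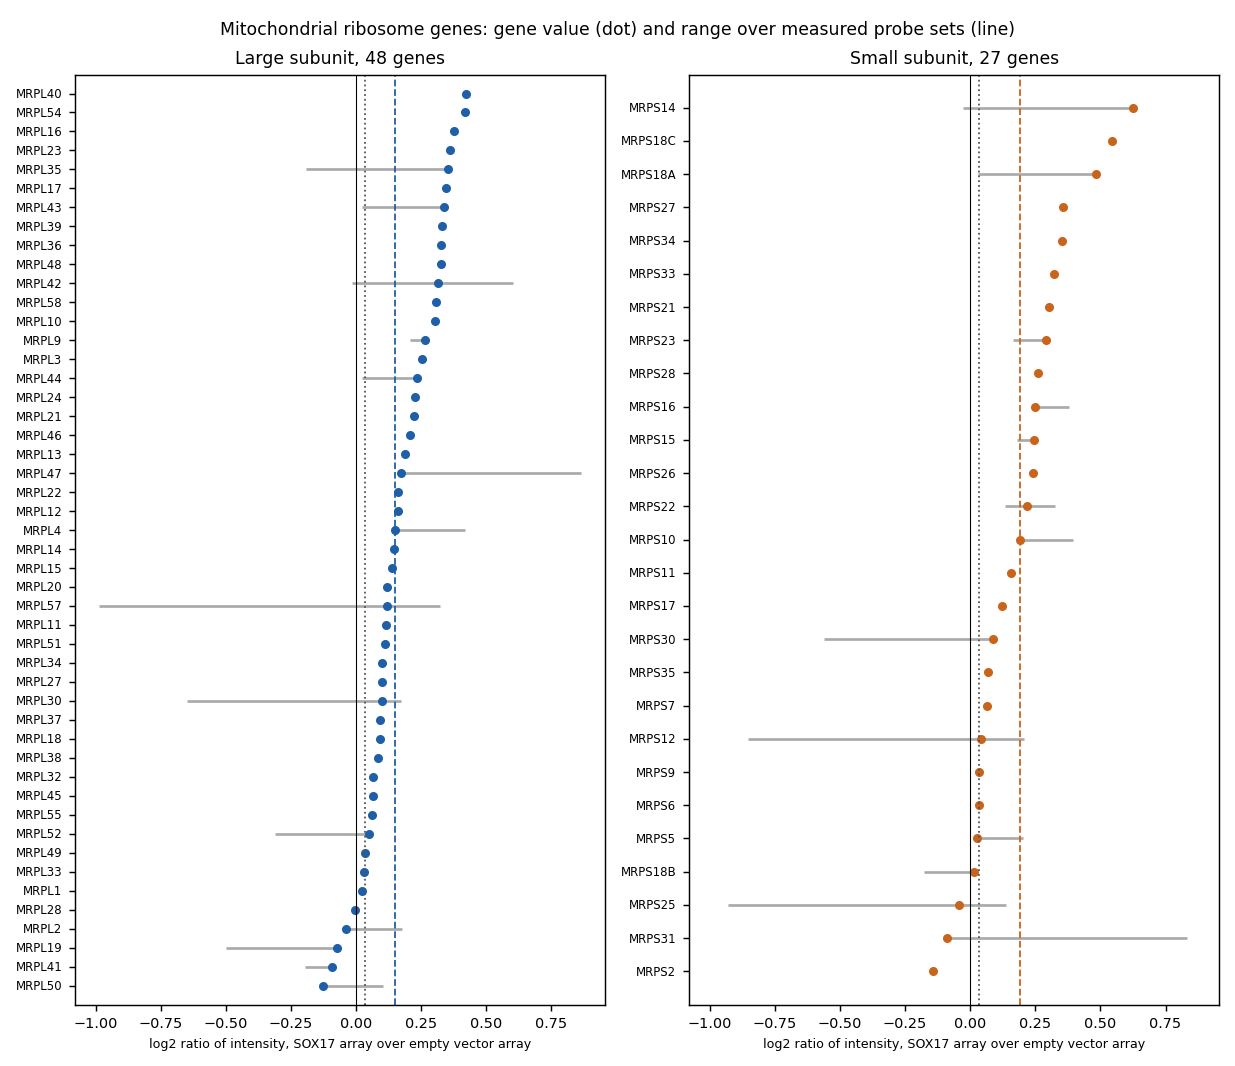
Log2 ratio of SOX17 over empty vector intensity for the 48 large subunit genes (left) and the 27 small subunit genes (right), sorted by value. Dots are gene values, grey lines span all measured probe sets of a gene, the dashed line is the median of the subunit (0.15 and 0.19) and the dotted line that of all measured genes (0.03). Dots lie to the right of 0 for 43 large and 24 small subunit genes.

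Probe sets of 1 gene often gave different ratios. The SD of the difference between the 2 brightest measured probe sets of a gene, over the square root of 2, was 0.27 over 4574 genes and 0.28 over the 27 members that allow it. It takes in the second, dimmer probe sets and genes of every intensity, and it was wider than the spread of the members' gene values (SD 0.16), so it is no estimate of the error of those values. It does not contain any spread between cultures.

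The ratios of the large and the small subunit overlapped. The median log2 ratio was 0.15 for the large subunit (43 of 48 above 0) and 0.19 for the small subunit (24 of 27 above 0). The large minus small difference of medians was -0.04, and -0.08 when the measured probe sets of a gene were averaged. The SD between genes was 0.14 in the large and 0.19 in the small subunit. Between their quartiles the large subunit genes ran from 0.08 to 0.31 and the small subunit genes from 0.04 to 0.30. When probe sets ending in _x_at or _s_at, which can read several transcripts, were left out, 24 large and 14 small subunit genes remained, with medians of 0.12 and 0.05. The order of the subunits then turned (a difference of 0.07). The same 24 and 14 genes had medians of 0.16 and 0.08 with the probe sets used above, so among them the order was turned there too.

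**Figure D2:**
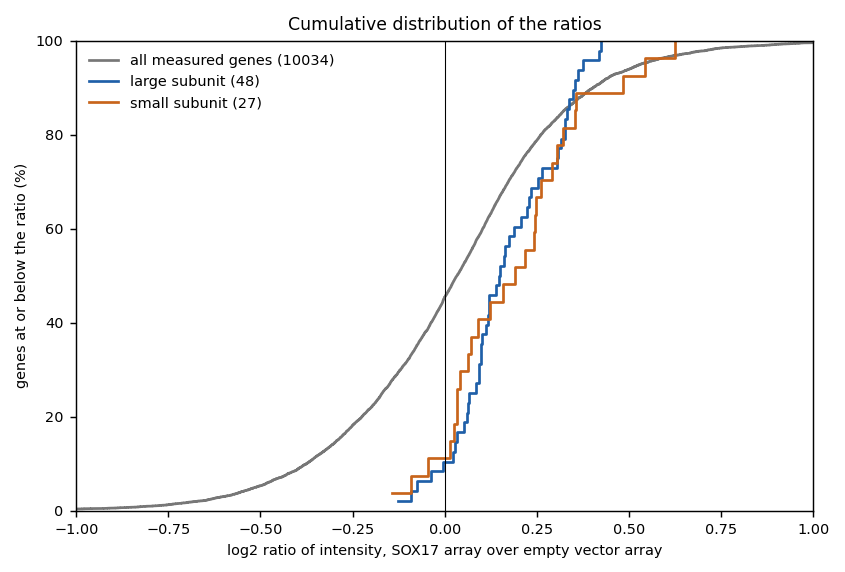
Percentage of genes at or below each log2 ratio for all 10034 measured genes (grey), the 48 large subunit genes (blue) and the 27 small subunit genes (orange). The subunit curves reach 50% at 0.15 and 0.19, to the right of the grey curve, which reaches it at 0.03.

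The ratio of all genes varied with intensity, so members were set beside genes of like intensity. Of the 75 members 72 fell in classes 4 and 5. In class 4 all genes had a median log2 ratio of -0.01 with 49.2% above 0 (SD between genes 0.26), and the 27 members there had a median of 0.23 with 23 above 0 (SD 0.19). In class 5 all genes had a median of 0.04 with 57.2% above 0 (SD 0.22), and the 45 members there a median of 0.12 with 42 above 0 (SD 0.14). The members' median was the higher one in both classes. The spiked poly-A controls, which enter the RNA ahead of labelling, were also higher with SOX17 on 24 of 24 probe sets (median log2 ratio 0.57). The hybridisation controls, which enter after labelling, were higher on 15 of 18 probe sets (median 0.11). The part of labelling, hybridisation or scaling in the members' ratios was not tested. Both probe sets of SOX17 were under the floor on both arrays, 1 at 4.5 with empty vector and 83.8 with SOX17 and the other at 19.1 and 6.5, so the labels could not be checked by the transfected gene. Of all 19775 genes 10034 were above the floor on both arrays. Of the 7 epithelial marker genes with a probe set of their own all were above the floor, while 0 of 3 leukocyte and 0 of 3 endothelial genes were. Of 4 fibroblast genes COL1A1 was, at 780.2 with empty vector and 845.1 with SOX17.

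**Figure D3:**
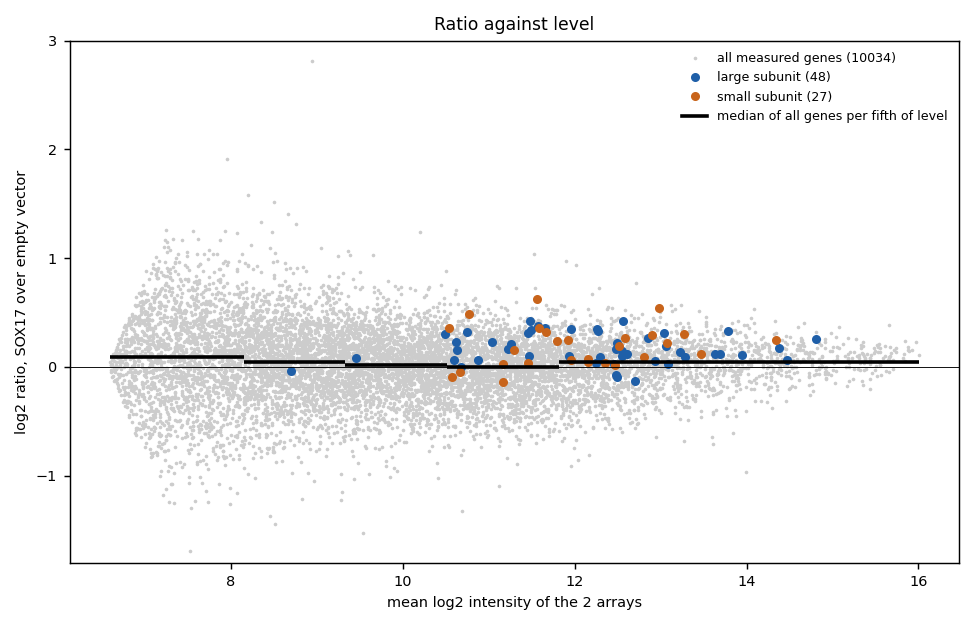
Log2 ratio (SOX17 over empty vector) against the mean log2 intensity of both arrays. Grey points are all 10034 measured genes, blue and orange points the large and small subunit genes, and black bars the median of all genes in each of 5 intensity classes. The bars of classes 4 and 5 stand at -0.01 and 0.04, and 65 of the 72 members in these classes lie above 0.

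The highest ratios of the small subunit belonged to MRPS14 and to a pair of the MRPS18 proteins. MRPS14, a protein of the small subunit head with a bacterial counterpart, read 2435.7 with empty vector and 3756.9 with SOX17 (1.54-fold, log2 ratio 0.63). Its other measured probe set read 176.3 and 172.8 (-0.03), so the probe sets of MRPS14 did not share a direction, and the mean over both did not reach 1.5-fold.

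The genes MRPS18A, MRPS18B and MRPS18C encode paralogs of 1 bacterial protein. In the mammalian ribosome MRPS18B and MRPS18C sit in the small subunit, while MRPS18A sits in the large subunit in spite of its name. MRPS18C read 6704.8 with empty vector and 9765.4 with SOX17 (log2 ratio 0.54), from the only probe set of it above the floor. MRPS18A read 1471.3 and 2057.7 with 1 probe set (0.48), but 1630.2 and 1663.4 with the other (0.03). MRPS18B read 5636.9 and 5695.8 (0.01), and 1628.7 and 1442 with its other probe set (-0.18). The paralogs thus ran from no difference to the second highest ratio of the small subunit, and the probe sets of MRPS18A did not repeat each other's size.

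The stretches before the start sites of these 3 genes are shown because the paralogs differ in the motifs they hold there. They comprise the 250 bases before each RefSeq start (GRCh38.p14), 5′ to 3′ on the strand of the gene. MRPS18A is read from chr6:43687792-43688041 (minus strand), MRPS18B from chr6:30617590-30617839 and MRPS18C from chr4:83455808-83456057 (both plus strand). Capitals mark matches, on either strand, to the 7 motifs listed with the promoters further on.
MRPS18A: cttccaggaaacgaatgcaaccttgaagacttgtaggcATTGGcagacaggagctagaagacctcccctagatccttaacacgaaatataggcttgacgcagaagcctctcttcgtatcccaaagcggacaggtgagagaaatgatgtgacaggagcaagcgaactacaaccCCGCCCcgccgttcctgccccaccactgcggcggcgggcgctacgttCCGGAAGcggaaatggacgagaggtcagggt
MRPS18B: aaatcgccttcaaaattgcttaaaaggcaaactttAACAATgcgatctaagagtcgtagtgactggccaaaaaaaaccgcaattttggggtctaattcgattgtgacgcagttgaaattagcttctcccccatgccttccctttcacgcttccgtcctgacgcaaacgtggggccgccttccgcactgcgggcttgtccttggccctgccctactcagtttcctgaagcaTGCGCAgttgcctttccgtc
MRPS18C: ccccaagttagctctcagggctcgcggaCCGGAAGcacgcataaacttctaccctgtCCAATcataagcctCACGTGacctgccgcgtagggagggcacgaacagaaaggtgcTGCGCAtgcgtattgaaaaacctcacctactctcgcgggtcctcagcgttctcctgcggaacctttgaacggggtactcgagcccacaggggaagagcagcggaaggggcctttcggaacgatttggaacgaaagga
The ETS letters CCGGAAG begin 31 bases before the start of MRPS18A and 222 bases before that of MRPS18C, and they are not in the stretch of MRPS18B. That of MRPS18B holds the NRF1 half-site TGCGCA 20 bases and the SOX letters AACAAT 215 bases before its start. The NRF1 half-site is in the stretch of MRPS18C too, 137 bases before the start. A match describes the letters and is no binding site. In the lists by descent used further on, MRPS18C stands with the bacterial class, MRPS18B with the class found only in mitochondria and MRPS18A in neither.

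Next in the small subunit came the mitochondria-specific proteins MRPS27, MRPS34 and MRPS33. MRPS27 read 2722.3 with empty vector and 3483.5 with SOX17 (0.36), MRPS34 1310.1 and 1674 (0.35), and MRPS33 2907.5 and 3635.2 (0.32). Each of these rests on 1 measured probe set. The ratios of MRPS21, MRPS23, MRPS28, MRPS16, MRPS15, MRPS26, MRPS22 and MRPS10 lay between 0.19 and 0.30. MRPS11 and MRPS17 had log2 ratios of 0.16 and 0.12.

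The 4 genes listed for decoding and the path of the mRNA had a median log2 ratio of 0.03. MRPS12, the counterpart of the bacterial protein at the decoding centre, read 4506.3 with empty vector and 4640.7 with SOX17 (0.04). MRPS5, at the mRNA entry, read 2277 and 2317.6 (0.03), and MRPS7, a protein of the head, 3897.7 and 4073 (0.06). MRPS2 read 2414.5 and 2187.3 and had the lowest ratio of the small subunit (-0.14). MRPS6, MRPS9, MRPS35 and MRPS30 also lay within 0.10 of 0. The product of MRPS30 belongs to the central protuberance of the large subunit, and its log2 ratio was 0.09. The other measured probe sets of MRPS30 lay at -0.56 (572.8 and 388.4) and -0.05 (370.6 and 358.3). The remaining members below 0 in the small subunit were MRPS25, at 1654.2 and 1603.4 (-0.04), and MRPS31, at 1569.7 and 1473.8 (-0.09). Another probe set of MRPS31 went the other way, at 1116.6 and 1987.4 (0.83).

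In the large subunit the highest ratios were those of MRPL40 and MRPL54, which have no bacterial counterpart. MRPL40, a protein of the central protuberance, read 5210.7 with empty vector and 6987.5 with SOX17 (0.42). MRPL54 read 2463.8 and 3295.6 (0.42). MRPL16, MRPL23 and MRPL35, which descend from bacterial proteins, followed at 0.37, 0.36 and 0.35. MRPL16 read 2668.6 and 3460.6, and MRPL23 2835.9 and 3644.2, each on 1 measured probe set. MRPL35 read 4338.4 and 5538.4, but its second probe set lay at -0.19 (951.8 and 833.9) and a further one at 0.10.

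The lowest ratios of the large subunit were small. MRPL50 read 6975.9 with empty vector and 6391.5 with SOX17 (-0.13), but 5270.2 and 5670.2 with its other measured probe set (0.11). MRPL41 read 5971.5 and 5603.3 (-0.09) and MRPL19 5862.1 and 5566.5 (-0.07). MRPL2 read 421.5 and 410.7 (-0.04), but 330.2 and 373.3 with its other measured probe set (0.18). MRPL28 read 1644.8 and 1638.6 (-0.01). These 5 were all the large subunit genes with a gene value below 0.

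By place in the large subunit, no site lay opposite to the rest. The 4 stalk genes, whose products contact the translation factors and the leaving tRNA, ran from 0.02 (MRPL1) over MRPL11 and MRPL12 to 0.30 (MRPL10). MRPL12, the counterpart of bacterial L7/L12, read 2262.5 with empty vector and 2530.4 with SOX17 (0.16), and MRPL10, its anchor, 1297.6 and 1602.2. The 6 genes of the exit tunnel had a median of 0.20. Among them MRPL45, which tethers the ribosome to the inner membrane, lay at 0.06 (1842.6 and 1926.2) and MRPL17 at 0.35 (3535 and 4496.5). MRPL22, MRPL47 and MRPL24 lay between 0.16 and 0.23. The 8 genes of the central protuberance, MRPS30 included, had a median of 0.15. MRPL58, a peptidyl-tRNA hydrolase that also rescues stalled ribosomes, read 2516.5 and 3115.6 (0.31), and MRPL48 1530.4 and 1917.2 (0.33). MRPL18, MRPL27 and MRPL38 lay between 0.09 and 0.10, and MRPL46 at 0.21. By its gene value every gene listed for the stalk, the tunnel and the protuberance lay above 0. MRPS30 was below 0 on its other measured probe sets.

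The other large subunit genes filled the range between. MRPL39, MRPL36, MRPL43 and MRPL42 lay between 0.31 and 0.34, and MRPL9, MRPL3, MRPL44 and MRPL21 between 0.22 and 0.26. MRPL3, a protein near the peptidyl transferase centre, read 26188.9 with empty vector and 31239.5 with SOX17 (0.25). MRPL13, MRPL4, MRPL14, MRPL15, MRPL20, MRPL57, MRPL51 and MRPL34 lay between 0.10 and 0.19. MRPL30, MRPL37, MRPL32, MRPL55, MRPL52, MRPL49 and MRPL33 lay between 0.03 and 0.10.

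Members listed with and without a bacterial counterpart had like medians in the large subunit and less like ones in the small subunit. In the large subunit the 29 genes with a bacterial counterpart had a median log2 ratio of 0.15 and the 18 without one of 0.16. In the small subunit the 14 listed with a counterpart had a median of 0.14 and the 10 listed as found only in mitochondria of 0.23. The latter class holds MRPS18B (0.01), although its product is a paralog of a bacterial protein. The ranges of these small subunit classes overlapped, from -0.14 to 0.63 and from -0.09 to 0.36, and the difference was not tested. A further 4 members (MRPL55, MRPS18A, MRPS28 and MRPS30) were placed in neither class.

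The probe sets of a gene give the only repeat of these values within an array. Of the 120 measured probe sets of members 94 lay above 0 (78.3%, against 51.1% of all measured probe sets paired with 1 gene), with a median of 0.14 against 0.01. Among the 45 that did not supply the gene value 27 lay above 0, with a median of 0.10. The share above 0 among such probe sets of all genes was not computed. By subunit 56 of 72 large and 38 of 48 small subunit probe sets lay above 0. Of the 27 members with several measured probe sets 12 were above 0 on every one, 2 were below 0 on every one, and 13 had both signs. The like counts over all genes with several measured probe sets were not computed. By gene value 21 of these 27 members lay above 0 (77.8%), against 46 of the 48 with 1 measured probe set (95.8%).

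Of the 12 members above 0 throughout, MRPS16, MRPL9, MRPS10, MRPS15 and MRPL47 had the largest lowest ratio. MRPS16 lay at 0.25 to 0.38 over 2 probe sets, MRPS10 at 0.19 to 0.40 over 3 and MRPS15 at 0.18 to 0.24 over 3. MRPL9 read 6727.5 with empty vector and 8074.5 with SOX17 (0.26), and 2201.5 and 2544.7 with its other probe set (0.21). MRPL47 read 20085.8 and 22650 (0.17), and 111.9 and 203.7 with its other one (0.86). MRPS22 was higher on all 4 of its probe sets, from 0.13 to 0.32, MRPS23 on both (0.16 and 0.29) and MRPL4 on all 3, from 0.15 to 0.42. All 4 of MRPS22 end in _x_at, and the measured ones of MRPL9, MRPS10, MRPS15 and MRPL47 in _s_at or _x_at. Both kinds can read several transcripts. MRPL43, MRPL44, MRPS5 and MRPS18A were above 0 on every measured probe set too, with a lowest ratio of 0.02 to 0.03.

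The members below 0 on every measured probe set were MRPL19 and MRPL41. MRPL41 lay at -0.20 to -0.09 over 3 probe sets. A further one, at 73.1 with empty vector and 110.5 with SOX17, was above the floor on the SOX17 array alone, which makes it at least 1.16-fold higher there. MRPL19 had another probe set at 183.5 and 129.9 (-0.50). The same kind of bound was given by a probe set of MRPS15 (at least 1.98-fold higher) and one of MRPS11 (at least 1.31-fold higher), both above the floor on the SOX17 array only.

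In the 13 members with both signs the probe sets of a gene could differ by more than any member differed between the arrays. MRPL57 read 12218.6 with empty vector and 13276.8 with SOX17 as its gene value (0.12), and 973.1 and 491 with another (-0.99). MRPS25 had a probe set at 410.5 and 215.4 (-0.93), and MRPS12 one at 333.5 and 184.8 (-0.85). MRPL30 had 5 measured probe sets, 2 of them at 0.10 and 0.17 and 3 between -0.65 and -0.07. In MRPL42 the span ran the other way, from -0.02 to 0.60, the latter on a probe set at 96.2 and 146. Pseudogenes are common in this family: RefSeq names 98 of them for 39 of the 75 members. Members with a named pseudogene had a median of 0.14 and the 36 without one of 0.18.

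Among members with several measured probe sets, all of 1 sign, the highest and the lowest gene values were those of MRPS18A and MRPL43 above 0 and MRPL41 and MRPL19 below 0. The stretches of MRPL43 (chr10:100987498-100987747, minus strand) and MRPL41 (chr9:137551629-137551878, plus strand) are shown, with the same marking, because they differ in composition. MRPL43 read 2556.7 with empty vector and 3228.1 with SOX17.
MRPL43: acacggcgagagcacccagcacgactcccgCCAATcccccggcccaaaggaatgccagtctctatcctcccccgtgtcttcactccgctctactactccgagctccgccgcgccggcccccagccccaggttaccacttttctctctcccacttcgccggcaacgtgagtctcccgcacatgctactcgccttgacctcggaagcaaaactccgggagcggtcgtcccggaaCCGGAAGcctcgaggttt
MRPL41: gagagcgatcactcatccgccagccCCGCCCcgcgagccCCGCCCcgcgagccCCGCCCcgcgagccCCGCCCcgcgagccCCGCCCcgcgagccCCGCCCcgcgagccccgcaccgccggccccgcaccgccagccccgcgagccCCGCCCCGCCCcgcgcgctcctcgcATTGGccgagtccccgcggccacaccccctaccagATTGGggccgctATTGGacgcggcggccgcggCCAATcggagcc
MRPL43 holds the ETS letters 18 bases before its start. MRPL41 holds no ETS match, but 8 GC boxes (as CCGCCC) and 4 CCAAT boxes, of which the closest begins 12 bases before the start. MRPL19 holds none of the 7 motifs in its stretch.

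RefSeq promoter windows of 300 bases, 250 before and 50 after the start, were at hand for 67 members. They were searched on both strands for the ETS motif CCGGAAG, the NRF1 half-site TGCGCA, the YY1 motif AAGATGG, the GC box GGGCGG, the CCAAT box CCAAT, the E-box CACGTG and the SOX motif AACAAT, of which 0 contain another. NRF1, GABP (an ETS factor) and YY1 are known activators of nuclear genes for mitochondrial proteins. ETS matches stood in 28 of the 67 windows (41.8%), against 14.2% of all 15843 protein-coding windows and 21.2% of those of measured genes. YY1 matches stood in 22 (32.8%, against 6.40% and 8.35%) and NRF1 half-sites in 14 (20.9%, against 10.8% and 14.5%). The GC box stood in 59.7% of members' windows, against 58.5% of all and 71.5% of those of measured genes. For the CCAAT box these shares were 29.9%, 36.4% and 37.6%, and for the E-box 8.96%, 8.88% and 10.9%. The SOX motif stood in 7.46%, 7.06% and 5.03%. By subunit the ETS share was 39.0% of large and 46.2% of small, and the YY1 share 34.1% and 30.8%.

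**Figure D4:**
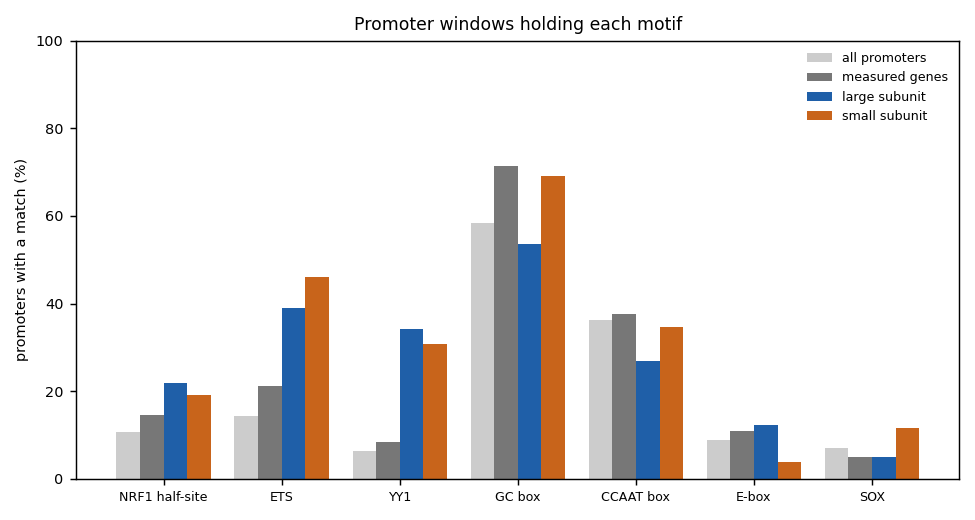
Percentage of 300-base promoter windows that hold each of 7 motifs on either strand, for all protein-coding genes, genes measured on both arrays, large subunit genes and small subunit genes. The bars of both subunits stand above those of all and of measured genes for the ETS and YY1 motifs and the NRF1 half-site.

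Members with an ETS match had a higher median than members without one. The 28 with a match had a median log2 ratio of 0.24 with 26 above 0, and the 39 without one a median of 0.10 with 34 above 0. Their ranges overlapped, from -0.09 to 0.54 and from -0.14 to 0.63. In the small subunit 12 genes with a match had a median of 0.27 and 14 without one of 0.07. In the large subunit the medians were 0.15 (16 genes) and 0.12 (25 genes). Over the measured genes with a promoter window the same split gave 0.05 with a match (1709 genes) and 0.03 without one (6370 genes). For the NRF1 half-site (0.14 and 0.15) and YY1 (0.11 and 0.16) the members with a match were not higher, and the 5 members with a SOX match had a median of 0.19 against 0.13 without one. Of the 7 motifs the ETS split had the widest gap, it was singled out after the values were seen, and it was not tested.

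Many members have another gene that starts close by and is read the other way. Of the 67 members 18 (26.9%) had a protein-coding gene that starts upstream within 1000 bases, on the opposite strand, and is read away from them. The share was 10.2% of all protein-coding windows, genes not measured here included, and it was not computed for measured genes alone. MRPL46 and MRPS11 form such a pair, with 320 bases between their starts, and had log2 ratios of 0.21 and 0.16. Outside the family 15 such neighbours were measured, and 11 lay above 0 with a median of 0.15. Over all measured genes 54.6% lay above 0, with a median of 0.03. APBA3, which starts 990 bases from MRPL54, read 451.8 with empty vector and 684.3 with SOX17 (0.60). HIRA, a histone chaperone whose gene starts 812 bases from MRPL40, lay at 0.27 (3620.8 and 4352.2). In other pairs the signs were opposite. SARS2, the mitochondrial seryl-tRNA synthetase, starts 181 bases from MRPS12 and lay at -0.24 (322 and 273.2). PIERCE1, which starts 813 bases from MRPS2, lay at 0.56 (335 and 493.2). Whether such neighbours share a promoter was not tested.

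Other genes of mitochondrial translation lay on both sides of 0. Of the 5 subunit genes with other names 4 were measured. GADD45GIP1, at the exit tunnel, read 1836.5 with empty vector and 2401.6 with SOX17 (0.39), and CHCHD1 lay at 0.11. DAP3, the GTP-binding subunit, read 7874 and 7748.4 (-0.02), and PTCD3 2861.7 and 2766.4 (-0.05). Of 16 measured translation factors 11 lay above 0 (68.8%, against 54.6% of all measured genes), with a median of 0.10. MTRES1, a factor that rescues stalled mitochondrial ribosomes, was 1118.4 and 1677.8 (0.59). It was the 1 factor at least 1.5-fold higher, a size that 3.78% of all measured genes reached. MTRES1 lay in intensity class 3, where 1.69% of all genes reached it. MTRFR, another rescue factor, lay at 0.45 (0.02 on its other measured probe set), the elongation factor TUFM at 0.39 (10306.8 and 13536.8, but -0.18 on its second probe set) and the formyltransferase MTFMT at 0.37.

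Genes for ribosome assembly and rRNA maturation were spread around 0. Of 24 measured 14 lay above 0 (58.3%, against 54.6% of all measured genes), with a median of 0.07. At least 1.5-fold higher were 2, a size that 3.78% of all measured genes reached. These were the rRNA methyltransferase MRM1, at 149.9 with empty vector and 261.2 with SOX17 (0.80), and RBFA, a small subunit assembly factor, at 337.6 and 520.5 (0.62). They lay in intensity classes 1 and 2, where 10.6% and 5.73% of all genes were at least 1.5-fold higher. The pseudouridine synthase RPUSD4 lay at -0.34 and the rRNA methyltransferase NSUN4 at 0.33, with -0.11 to 0.36 over its 3 measured probe sets.

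Genes that transcribe and process mitochondrial RNA had a median below 0. Of 15 measured 5 lay above 0 (33.3%, against 54.6% of all measured genes) and 10 below, with a median of -0.12. TFAM, which packages and transcribes mitochondrial DNA, read 5745.6 with empty vector and 4496.7 with SOX17 (-0.35), and its 3 probe sets ran from -0.69 to -0.05. The poly(A) polymerase MTPAP read 5888.4 and 4914.3 (-0.26) and was below 0 on all 4 probe sets. FASTK lay at -0.28, with 0.73 on its other probe set, and the mitochondrial RNA polymerase POLRMT at 0.23 (538.5 and 633.3). Of 9 measured regulators of nuclear mitochondrial genes 3 lay above 0 (33.3%), with a median of -0.13. The coactivators PPARGC1B and PPRC1 lay at -0.32 and -0.25, NRF1 at 0.23 and GABPB1 at -0.17. NRF1 had a second probe set at -1.11 and GABPB1 one at 0.31. The proteins encoded by mitochondrial DNA, which this ribosome makes, had 0 probe sets paired with them.

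**Figure D5:**
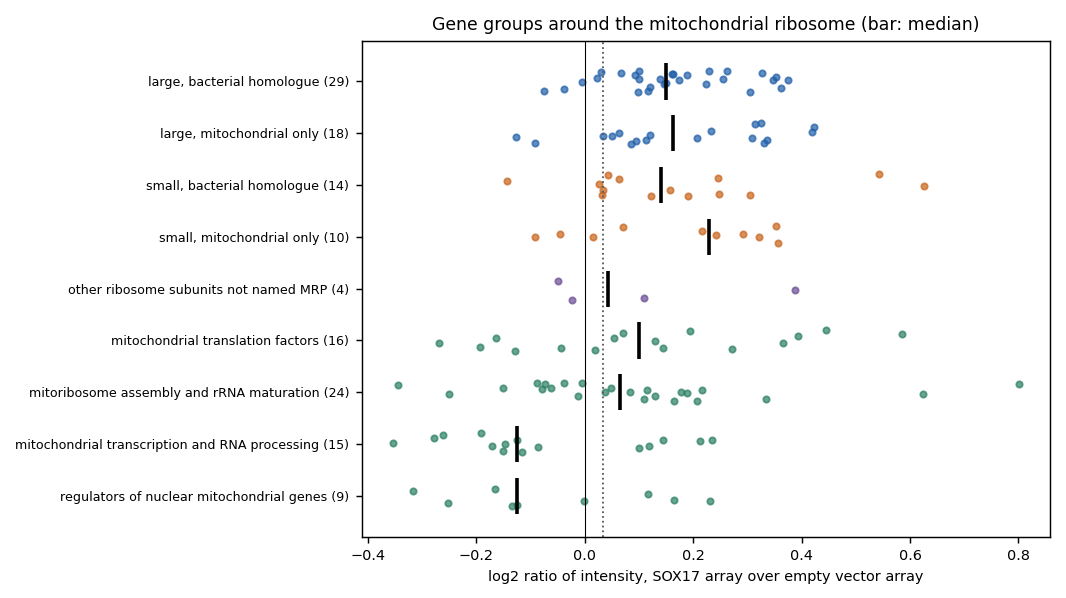
Log2 ratio (SOX17 over empty vector) of each measured gene in 9 groups, with the number of genes in brackets, a black bar at the group's median and a dotted line at the median of all measured genes (0.03). The 4 groups of MRP genes have medians of 0.14 to 0.23, and the transcription and regulator groups have medians of -0.12 and -0.13.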

How the data were processed

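RNA was measured on 2 Affymetrix arrays, 1 per group. The authors deposited a linear intensity for every probe set, and the submitters' processing notes name GCOS. Algorithm, settings and version are not given in the sources used here, nor are detection calls. Both arrays had a mean of 500.1 once the lowest and highest 2% of values were left out, which by the values alone points to a common scaling before deposit, and no further scaling was applied. Probe sets were named by GEO's platform annotation where it gives 1 gene, and 0 symbols needed an update through RefSeq.

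A floor was set at the 60th percentile of the pooled values. The log2 ratio, computed from the deposited values, is the SOX17 over the empty vector intensity. Genes were counted at 1.5-fold and 2-fold, with no test. A bound is the brighter intensity over the floor. Members, gene lists, motifs and alternatives were chosen with earlier results of these data known, and the splits by neighbouring genes and by intensity class after the present values were seen. Values are printed for the 5 highest and lowest genes of each subunit, members past 1.5-fold, those with probe sets of 1 sign, genes listed for a role, and up to 4 genes of each other list. Promoter windows are RefSeq's (GRCh38.p14). Python 3.11.15, numpy 2.4.6, pandas 2.3.3 and statsmodels 0.14.6 were used, and the ratios were tested on simulated data.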

Additional observations from a re-analysis of the deposited data

How the results depend on the processing

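Under 9 alternatives (centring on the median gene, quantile normalization, loess of the ratio on level, a floor at percentile 50, at percentile 75 or absent, averaging probe sets, leaving out those ending in _x_at or _s_at, and MRPS18A and MRPS30 counted with the large subunit) both subunit medians stayed above 0. With _x_at and _s_at probe sets left out, where 38 of the 75 members remained, the small subunit median was 0.0486, the large minus small difference turned to 0.0737, and 22 of 24 large and 11 of 14 small subunit genes lay above 0. In the reported setting 21 of the same 24 and 12 of the same 14 lay above 0, with medians of 0.16 and 0.08. MRPL50 and MRPS14 changed sign, and MRPL42 in place of MRPS14 was at least 1.5-fold higher. With probe sets averaged 0 members were at least 1.5-fold higher and the difference of subunit medians was -0.08. The other alternatives kept the sign of both medians and of their difference, and the counts of members within 1.5 times. The number of all genes at least 1.5-fold higher moved with the floor, from 379 to 670 at percentile 50, 108 at percentile 75 and 4238 without one. Over the settings 55 members kept a ratio above 0, 4 kept one below 0 and 16 changed sign. The gap between members with and without an ETS match ran from 0.13 to 0.20. Moving or dropping the floor and regrouping MRPS18A and MRPS30 left every member's ratio as reported. Those settings thus could not change a sign or the ETS gap. Centring shifts all ratios alike, so it could not change the ETS gap or the difference of subunit medians. No paired analysis was possible because each group has 1 array. The number of arrays limits the precision.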
